A study of Mus musculus with 9 samples.

Results

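The genes described here make sterols and fatty acids, sense and control both through the SREBP transcription factors, or move sterols within and out of the cell. They are 37 genes chosen by name from a list, among 48795 gene IDs counted in each library. No measured value enters the rule, but the list was drawn with earlier results of these data known. All 37 matched 1 gene ID each and all passed the low-count filter. They were followed in mouse splenic follicular B cells, the main recirculating B cell of the spleen, selected on CD23. The tatcre cells had been treated with TAT-CRE, a Cre recombinase that enters cells, and the mock cells had not. Cells of both groups came from C57BL/6 mice of genotype yy1 f/f, whose Yy1 gene Cre can delete, and both groups were grown afterwards in LPS plus IL-4, which drive B cells to divide and switch class. There were 3 tatcre and 3 mock RNA libraries. No group received Cre without a floxed Yy1, so exposure to Cre and loss of Yy1 cannot be told apart. The series text gives 72 hours with 10% serum and the sample text 48 hours with 20% serum, and serum brings lipoprotein sterol into the culture.

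Sterols and fatty acids are both built from cytosolic acetyl-CoA, which ATP citrate lyase supplies. When sterol in the endoplasmic reticulum is scarce, the escort protein SCAP carries SREBP to the Golgi, where it is cut to release a transcription factor. SREBP2 acts mainly on sterol genes and SREBP1c mainly on fatty acid genes. When sterol is plentiful, INSIG proteins hold SCAP back, and LXR receptors, activated by oxysterols, raise the genes for sterol export. Activated lymphocytes are known to raise both synthetic routes as they grow.

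Total gene counts were 22729187 to 24471132 in tatcre and 24842380 to 28230727 in mock libraries, and levels are given as CPM, the count relative to library size after scaling the libraries by TMM. Counting error limits the low genes, since a count of 0 allows up to 3 counts, 0.12 to 0.125 CPM in tatcre and 0.111 to 0.128 CPM in mock libraries. Yy1 itself had 24, 36 and 50 counts in the tatcre libraries against 2655, 3018 and 2542 in the mock libraries. The 7 B cell markers examined were all tested, with a summed level of 4133 to 4198 CPM in tatcre and 5047 to 5335 CPM in mock libraries, and 4 of them were lower, Pax5, Cd22 and Fcer2a included. Of other cells, macrophage or monocyte genes summed to 0.481 to 1.46 CPM in tatcre and 0.128 to 0.68 CPM in mock libraries, with Cd14 at 0, and neutrophil genes summed to at most 0.12 CPM in tatcre and 0.113 CPM in mock libraries, with S100a8, S100a9 and Ly6g at 0. Dendritic cell genes summed to 106 to 113 CPM in tatcre and 120 to 134 CPM in mock libraries, with 1 of 4 lower. That gene, Flt3, made up most of the sum (mean 101 CPM in tatcre, 120 CPM in mock libraries). Zbtb46 was at 8 and 8.22 CPM, Siglech at 0.303 and 0.332 CPM, and Clec9a at 0.0139 and 0 CPM. Fibroblast or endothelial genes summed to 35.8 to 39.4 CPM in tatcre and 38.4 to 48.3 CPM in mock libraries. Of these 4, Pecam1 was lower and made up most of the sum (mean 33.5 CPM in tatcre, 41.4 CPM in mock libraries). Col1a1 was higher (mean 1.89 CPM in tatcre, 0.418 CPM in mock libraries). No NK or erythroid gene passed the low-count filter, so none was tested, and of 4 hepatocyte or adipocyte genes the 2 tested had no call. T cell genes summed to 9.74 to 13.3 CPM in tatcre and 14.5 to 21.1 CPM in mock libraries, with 1 of 6 lower. That gene, Lck, made up most of the sum (mean 10.3 CPM in tatcre, 17 CPM in mock libraries). Cd3e was at a mean of 0.383 and 0.0872 CPM and Trac at 0.611 and 0.311 CPM. The part of these marker differences in the results was not tested. In bulk RNA, fewer cells of a type and less RNA per cell cannot be told apart. The series text gives 3 spleens, but no label ties a library to a spleen or a mouse. The p-values thus reflect only how these libraries vary, which may be technical.

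The promoters below are those of genes on which the results turn, printed to show the sequence from which each is transcribed. They are RefSeq sequence of build GRCm38.p6, the 250 bases before an annotated start, 5′ to 3′ on the gene's strand. For Lss the start used lies inside the annotated gene, which begins at 76531565, so the last printed bases are within it. Capitals mark matches, on either strand, to TCACNCCAC (the classical sterol regulatory element), CCAAT (bound by NF-Y), GGGCGG (bound by Sp1), CACGTG (the E-box, which SREBP also binds) and AANATGGC (a YY1 core). Fads2 had the largest fall of the 37 genes, Lss and Nsdhl had the largest falls of the sterol genes after Acat2, Insig1 is the feedback gene that fell, and Hmgcs1 was not called.
Fads2 promoter, chr19:10101504-10101753, minus strand: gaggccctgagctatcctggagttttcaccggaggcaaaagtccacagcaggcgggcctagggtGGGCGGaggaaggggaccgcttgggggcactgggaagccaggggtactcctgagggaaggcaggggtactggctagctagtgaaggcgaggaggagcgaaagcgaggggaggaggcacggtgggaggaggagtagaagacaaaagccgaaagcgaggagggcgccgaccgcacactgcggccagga
Lss promoter, chr10:76531355-76531604, plus strand: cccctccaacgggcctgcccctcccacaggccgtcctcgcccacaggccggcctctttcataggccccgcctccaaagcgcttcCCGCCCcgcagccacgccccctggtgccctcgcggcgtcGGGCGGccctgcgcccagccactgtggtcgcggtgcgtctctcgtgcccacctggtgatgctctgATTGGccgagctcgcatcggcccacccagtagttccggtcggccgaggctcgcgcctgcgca
Nsdhl promoter, chrX:72918271-72918520, plus strand: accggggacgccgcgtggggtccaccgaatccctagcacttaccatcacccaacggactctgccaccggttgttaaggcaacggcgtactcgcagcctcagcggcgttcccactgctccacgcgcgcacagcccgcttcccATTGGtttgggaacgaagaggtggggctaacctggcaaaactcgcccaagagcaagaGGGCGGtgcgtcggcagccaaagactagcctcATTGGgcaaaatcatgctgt
Insig1 promoter, chr5:28071162-28071411, plus strand: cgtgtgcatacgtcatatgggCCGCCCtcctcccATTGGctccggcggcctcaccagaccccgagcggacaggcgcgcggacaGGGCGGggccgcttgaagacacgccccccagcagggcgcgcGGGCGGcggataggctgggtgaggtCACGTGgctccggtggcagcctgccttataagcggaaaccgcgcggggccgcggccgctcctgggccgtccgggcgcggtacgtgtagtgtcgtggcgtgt
Hmgcs1 promoter, chr13:119690101-119690350, plus strand: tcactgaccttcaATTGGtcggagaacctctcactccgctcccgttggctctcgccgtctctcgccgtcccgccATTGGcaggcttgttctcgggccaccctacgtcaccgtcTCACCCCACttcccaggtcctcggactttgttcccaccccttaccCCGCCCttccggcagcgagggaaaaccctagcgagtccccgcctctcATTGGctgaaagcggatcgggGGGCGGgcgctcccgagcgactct

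Windows of 300 bases (250 before and 50 after the start) were found for 29 of the 37 genes, as 37 windows, and were searched on both strands. CCAAT was present in 24 of these 37 windows (64.9%), against 37.4% of all 32851 windows and 37.9% of the windows of tested genes. GGGCGG was in 28 (75.7%), against 35.7% and 60.6% of the same windows, and CACGTG was in 8 (21.6%), against 7.15% and 9.95%. Windows of Scap overlap and share a CACGTG and a GGGCGG match, so these sites are counted more than once. By gene, CCAAT was found for 23 of the 29 genes, GGGCGG for 24 and CACGTG for 7. The strict sterol element TCACNCCAC occurred in 1 window, that of Hmgcs1, and in 1.24% of all windows. It lies 137 to 129 bases before the start, with CCAAT matches, on the opposite strand, both before and after it. AANATGGC occurred in 2 windows (5.41%), against 6.05% of all and 8.37% of tested genes' windows, and those belong to Insig2 and Srebf2, neither of which was called. CCAAT was found for 15 of the 19 genes with a window that were lower and for 8 of the 10 that were not called. No matches of different motifs overlapped, and the only overlap was of 2 CCAAT matches, on opposite strands, at Fasn. These matches describe letters and not binding.

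Tatcre cells were compared with mock cells to see which transcripts of lipid synthesis differ in activated cells after TAT-CRE treatment. Of the 37 genes, 25 fell, none rose and 12 were not called, where a call is an edgeR quasi-likelihood p-value under 0.05 after Benjamini-Hochberg adjustment over all 15546 tested genes. Of all tested genes 27.1% were called, 16.3% lower and 10.8% higher. Of tested genes at a mean of 5 or more on the log2 CPM scale, where 27 of the 37 genes lie, 24.3% were lower, and 20 of those 27 genes were lower. The median log2 fold change of the 37 genes was -0.41, against 0.02 over all tested genes and -0.06 over tested genes at a mean of 5 or more. The tatcre and mock libraries did not overlap for 29 of the 37 genes, all lower in tatcre, where 23.3% of tested genes have every tatcre library below every mock library and 20.6% every tatcre library above; among tested genes at a mean of 5 or more the share below is 32.2%. Falls were of moderate size: 12 of the 37 genes were called and at least 1.5-fold lower, as were 7.91% of tested genes, and the highest fold change was that of Soat1, which was not called.

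**Figure D1:**
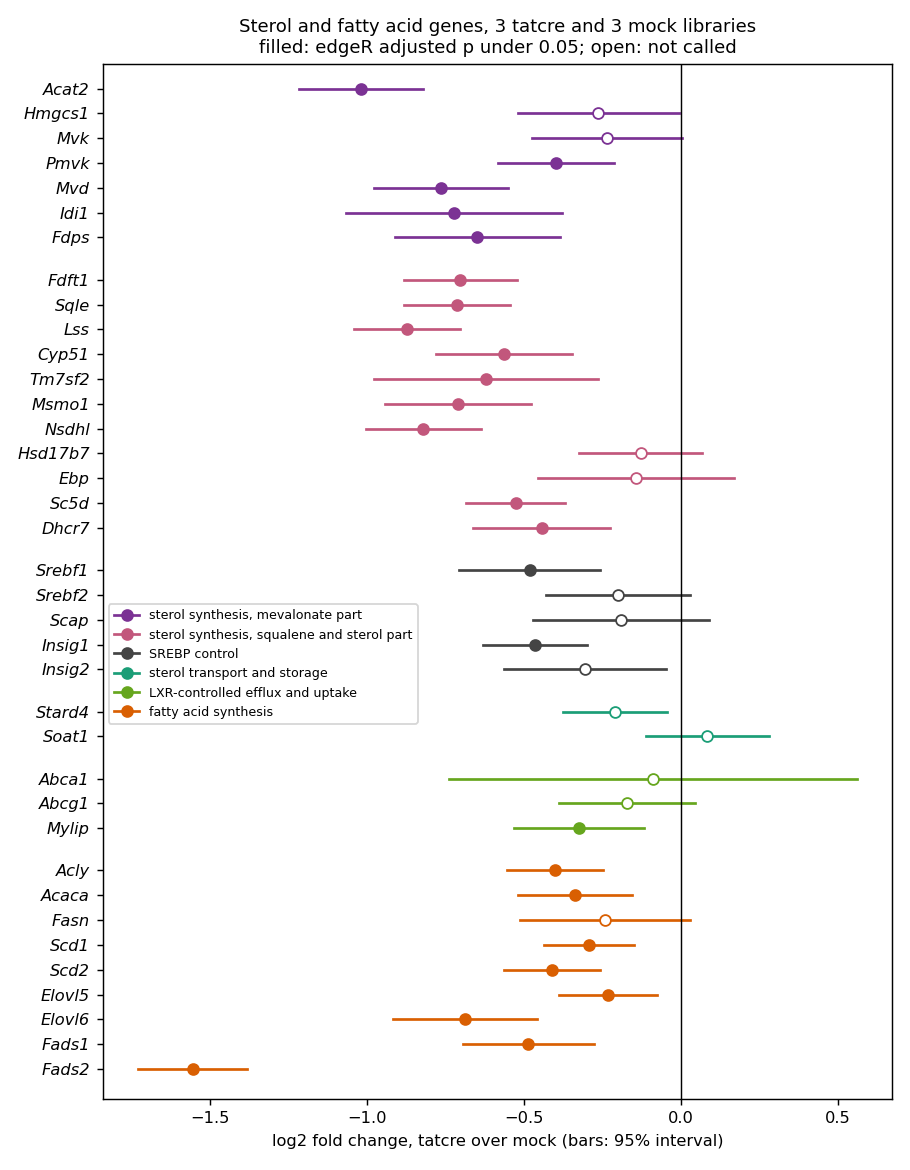
Log2 fold change of each of the 37 genes, tatcre over mock, with 95% intervals; genes are grouped by role, filled points were called and open points were not. All points but Soat1 lie left of 0, and Fads2, at -1.55, lies apart from the rest.

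**Figure D2:**
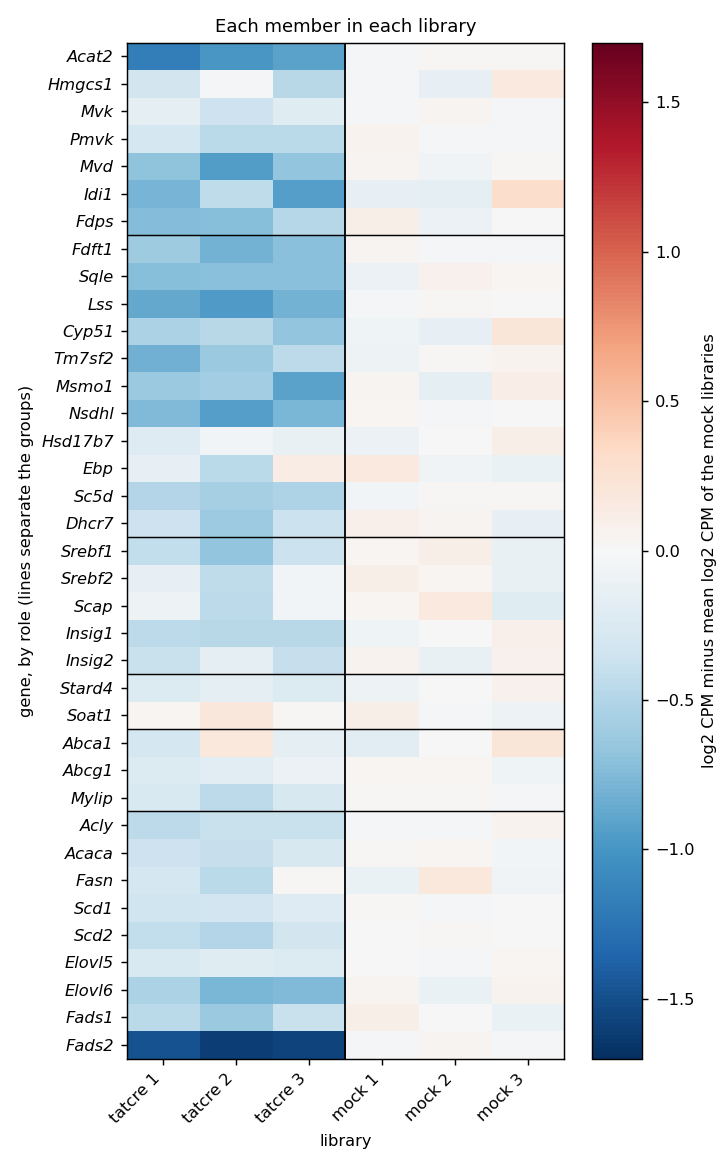
Each gene (row, by role) in each library (column), as log2 CPM minus the mean log2 CPM of the 3 mock libraries, with blue lower and red higher. The tatcre columns are blue for most synthesis genes in all 3 libraries, while Soat1 is above 0 in all 3 and Ebp, Abca1 and Fasn in 1.

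The sterol route opens with 7 enzymes that turn acetyl-CoA into farnesyl diphosphate. Of these, 5 fell, where 16.3% of all tested genes were lower. Acat2, the cytosolic acetyl-CoA acetyltransferase of the first step, had 38.4, 43.6 and 46.2 CPM in tatcre 1, 2 and 3, against 84.5, 87.7 and 87.5 CPM in mock 1, 2 and 3. Every tatcre library was near one level and every mock library near a higher one, with no overlap. Acat2 was 2.02-fold lower in tatcre cells, the largest fall of the sterol genes (log2 fold change -1.02, SE 0.09, edgeR adjusted p = 2.19e-05). Acat3, a related gene beside it on chromosome 17, was also lower, at 0.847 ± 0.159 CPM in tatcre and 2.05 ± 0.144 CPM in mock cells (SD, n = 3 each), a call lost without tatcre 3 or mock 2 (edgeR adjusted p up to 0.0669). No source states how reads shared by the pair were counted, so Acat2 carries that uncertainty, as it does for a pseudogene that overlaps it.

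Hmgcs1, which encodes the synthase of the next step, was not called. It had 658, 811 and 591 CPM in the tatcre libraries, against 803, 747 and 921 CPM in the mock libraries. Tatcre 2 exceeded mock 1 and mock 2, so the groups overlapped. The log2 fold change was -0.26 (95% interval -0.52 to -0.01, edgeR adjusted p = 0.12). Without tatcre 2 it was -0.40 and was called (edgeR adjusted p = 0.0129), and it was also called without the low-count filter (0.00659).

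Among the kinases and later enzymes of this part, Mvk, the mevalonate kinase, had 13.9, 12.3 and 13.6 CPM in tatcre and 15.4, 16.1 and 15.3 CPM in mock libraries. These did not overlap, yet the gene had no call (log2 fold change -0.24, 95% interval -0.47 to 0.00, edgeR adjusted p = 0.133). Pmvk, the kinase that follows, fell 1.32-fold, to 44.9 ± 2.88 CPM in tatcre against 59.2 ± 2.11 CPM in mock cells. Mvd, the decarboxylase that makes isopentenyl diphosphate, fell 1.7-fold, with 38.3, 31.7 and 38.6 CPM in tatcre and 63.3, 58.7 and 62.3 CPM in mock libraries. The libraries of Mvd did not overlap between groups. Idi1, the isomerase of that product, fell 1.65-fold, with 19.6, 25.1 and 17.8 CPM in tatcre and 30.9, 30.5 and 41.9 CPM in mock libraries. Fdps, farnesyl diphosphate synthase, fell 1.57-fold, to 11.8 ± 1.2 CPM in tatcre against 18.6 ± 1.32 CPM in mock cells. Mock 3 was the highest mock library, and tatcre 2 the highest tatcre library, for both Hmgcs1 and Idi1.

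From squalene to cholesterol, 9 of 11 enzymes fell and 2 were not called, where 16.3% of all tested genes were lower. Lss, lanosterol synthase, which closes the sterol rings, had 87.4, 82 and 91.5 CPM in the tatcre libraries, against 157, 161 and 159 CPM in the mock libraries. It was 1.83-fold lower (log2 fold change -0.87, SE 0.08, edgeR adjusted p = 2.19e-05), and the groups stood far apart. Sqle, the squalene epoxidase, a rate-limiting step of this part, had 125, 126 and 126 CPM in tatcre and 191, 215 and 211 CPM in mock libraries, a 1.64-fold fall (edgeR adjusted p = 8.27e-05). Its tatcre libraries were nearly equal. Nsdhl, a sterol dehydrogenase of the demethylation steps, fell 1.77-fold, with 43, 37.9 and 42.2 CPM in tatcre and 74.4, 70.9 and 72 CPM in mock libraries (edgeR adjusted p = 5.81e-05).

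The other called enzymes of that stretch fell 1.36- to 1.64-fold. Fdft1, squalene synthase, which commits the route to sterols, fell 1.63-fold, to 68.9 ± 4.7 CPM in tatcre against 112 ± 3.58 CPM in mock cells. The annotated span of Fdft1 overlaps that of its neighbour Ctsb, which was not called and had a log2 fold change of 0.22. Msmo1, the methylsterol oxidase, and Cyp51, the lanosterol demethylase, fell 1.64- and 1.48-fold. Cyp51 had 586, 614 and 533 CPM in tatcre and 810, 771 and 982 CPM in mock libraries, again with mock 3 highest. Sc5d, a sterol desaturase, fell 1.44-fold and Dhcr7, the reductase of the last step, 1.36-fold, to 56.7 ± 5.6 CPM in tatcre against 77.1 ± 6.33 CPM in mock cells. Tm7sf2, a sterol reductase with low counts, fell 1.54-fold, a call lost without tatcre 1 or mock 2 (edgeR adjusted p = 0.0592 and 0.0509).

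The 2 enzymes of this stretch without a call were Hsd17b7, a ketosterol reductase, and Ebp, the sterol isomerase. Hsd17b7 had 42.6, 47.9 and 45.3 CPM in tatcre and 46.2, 49.5 and 52.8 CPM in mock libraries (log2 fold change -0.13, 95% interval -0.32 to 0.07, edgeR adjusted p = 0.305). Ebp had 28.2, 22.7 and 34 CPM in tatcre and 35, 29.9 and 28.7 CPM in mock libraries (log2 fold change -0.14, 95% interval -0.45 to 0.17, edgeR adjusted p = 0.48). For both genes the groups overlapped. The intervals leave room for a fall of the size of Dhcr7 at Ebp, and at Hsd17b7 not for one of the size of Lss.

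Over the whole route, 14 of 18 sterol genes fell (77.8%), 10 of them by at least 1.5-fold, with a median log2 fold change of -0.63. Over all tested genes 16.3% were lower, and 7.91% were called and at least 1.5-fold lower. Summed over the 18 genes, the level was 2240, 2391 and 2091 CPM in tatcre and 3145, 3016 and 3472 CPM in mock libraries, without overlap.

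**Figure D3:**
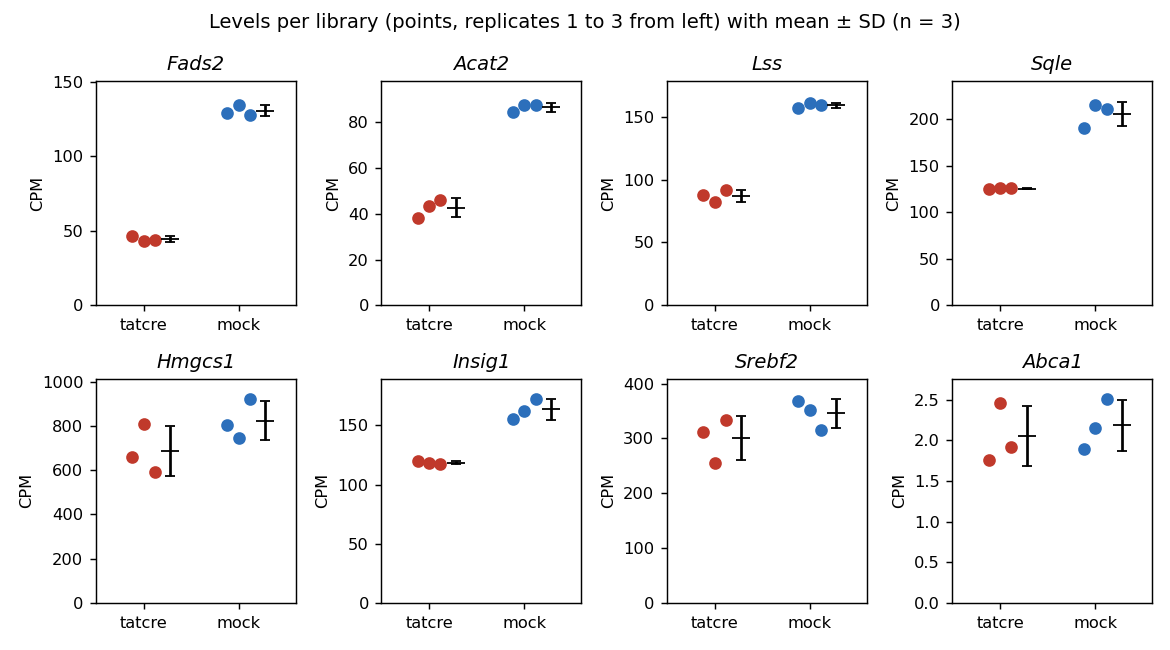
CPM of 8 genes in each library, tatcre left and mock right, with points for libraries and bars for mean ± SD (n = 3). Fads2, Acat2, Lss, Sqle and Insig1 separate the groups, while Hmgcs1, Srebf2 and Abca1 overlap.

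Fatty acid synthesis showed falls in 8 of 9 genes (88.9%), and 2 of them, Fads2 and Elovl6, were at least 1.5-fold lower. Over all tested genes 16.3% were lower, and 7.91% were called and at least 1.5-fold lower. Fads2, the desaturase that opens the conversion of essential fatty acids to longer polyunsaturated ones, had 46.7, 42.9 and 43.8 CPM in tatcre and 129, 135 and 128 CPM in mock libraries. The tatcre libraries lay at about one level and far under all mock libraries. It was 2.93-fold lower (log2 fold change -1.55, SE 0.08, 95% interval -1.73 to -1.38, edgeR adjusted p = 7.8e-07), the largest fall of the 37 genes and number 251 of 15546 when genes are ordered from the lowest fold change up. Fads1, which acts on the same fatty acids later and lies in the same cluster on chromosome 19, fell 1.4-fold, with 48.7, 43.2 and 51.6 CPM in tatcre and 71.4, 67.4 and 62 CPM in mock libraries (edgeR adjusted p = 0.00333). The 95% intervals of the log2 fold changes of Fads2 (-1.73 to -1.38) and Fads1 (-0.69 to -0.28) do not overlap, though the difference itself was not tested.

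The genes around Fads2 (GRCm38, chromosome 19, 10062765 to 10101503) were added after its value had been seen. Fads3, a related gene at 10040855 to 10060113, had 0.41, 0.125 and 0.241 CPM in tatcre and 1.1, 1.22 and 0.596 CPM in mock libraries. It was called lower (log2 fold change -1.89, SE 0.59, edgeR adjusted p = 0.0361), but not with a replicate block or without tatcre 2, tatcre 3, mock 1 or mock 2 (edgeR adjusted p up to 0.141). Fen1, a flap endonuclease gene beyond Fads1, had 58.7 ± 4.29 CPM in tatcre and 71.8 ± 7.82 CPM in mock cells and had no call (edgeR adjusted p = 0.0508; called with DESeq2, without the low-count filter and without tatcre 3, mock 1 or mock 3). Tmem258 next to it was at a log2 fold change of 0.02.

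The enzymes from citrate to palmitate fell by less or were not called. Acly, ATP citrate lyase, which supplies acetyl-CoA to both routes, had 322, 338 and 335 CPM in tatcre and 427, 429 and 456 CPM in mock libraries, a 1.32-fold fall (edgeR adjusted p = 0.00171). Acaca, acetyl-CoA carboxylase, the committed step, fell 1.26-fold, to 37 ± 1.58 CPM in tatcre against 46.8 ± 1.23 CPM in mock cells. Neither gene's libraries overlapped between groups. Fasn, the fatty acid synthase itself, had 211, 189 and 263 CPM in tatcre and 240, 294 and 249 CPM in mock libraries. Tatcre 3 lay above mock 1 and mock 3, and the gene had no call (log2 fold change -0.24, 95% interval -0.51 to 0.03, edgeR adjusted p = 0.167). It was called without tatcre 3 (log2 fold change -0.39, edgeR adjusted p = 0.0253) and without the low-count filter (0.0184).

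Scd1 and Scd2, the stearoyl-CoA desaturases that make oleate, both fell. Scd1 had 936, 941 and 1008 CPM in tatcre and 1198, 1165 and 1172 CPM in mock libraries, a 1.23-fold fall. Scd2 had 1154, 1087 and 1236 CPM in tatcre and 1534, 1558 and 1528 CPM in mock libraries, a 1.33-fold fall. The pair lie near each other on chromosome 19 and resemble each other, so reads shared between them are a limit on both values. Of the elongases, Elovl6, which extends palmitate to stearate, fell 1.61-fold, with 23.1, 19.6 and 19.9 CPM in tatcre and 34.8, 30.9 and 35.1 CPM in mock libraries. Elovl5, which extends polyunsaturated fatty acids, fell 1.17-fold (edgeR adjusted p = 0.0333), a call lost in 8 of the 12 other settings (edgeR adjusted p up to 0.189), among them upper-quartile scaling and each of 5 left-out libraries.

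Of the 5 genes that control the route, 2 fell, where 16.3% of all tested genes were lower. Of tested genes at a mean of 5 or more on the log2 CPM scale, 24.3% were lower. Srebf1, which encodes SREBP1, had 49.1, 41.4 and 51.1 CPM in tatcre and 67.3, 70.2 and 60.1 CPM in mock libraries, a 1.4-fold fall (log2 fold change -0.48, SE 0.10, edgeR adjusted p = 0.00528). Insig1, the retention protein whose gene is itself raised by SREBP, had 120, 118 and 117 CPM in tatcre and 156, 162 and 173 CPM in mock libraries, a 1.38-fold fall (edgeR adjusted p = 0.00113). In both genes the groups were separate. Srebf2, which encodes SREBP2, had 312, 256 and 334 CPM in tatcre and 369, 352 and 316 CPM in mock libraries, and tatcre 3 exceeded mock 3. It had no call (log2 fold change -0.20, 95% interval -0.43 to 0.03, edgeR adjusted p = 0.176). Scap, which encodes the escort, overlapped as well (log2 fold change -0.19, 95% interval -0.47 to 0.09, edgeR adjusted p = 0.287). Insig2, the other retention gene, at 14.4 ± 1.41 CPM in tatcre and 17.8 ± 1.36 CPM in mock cells, had no call (edgeR adjusted p = 0.0773), except without tatcre 2 (0.0354). RNA of these genes does not measure the cut, active form of SREBP.

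Sterol transport, storage and export showed 1 fall in 5 genes, where 16.3% of all tested genes were lower. Stard4, a carrier of sterol between membranes, had 200 ± 5.93 CPM in tatcre and 231 ± 12.9 CPM in mock cells, without a call (log2 fold change of -0.21, edgeR adjusted p = 0.0599). It was called without the low-count filter and without mock 1 (edgeR adjusted p = 0.0485 and 0.0434). Soat1, which esterifies sterol for storage, had 46.5, 51.7 and 46 CPM in tatcre and 48.4, 44.7 and 42.8 CPM in mock libraries (log2 fold change 0.08, 95% interval -0.11 to 0.28, edgeR adjusted p = 0.508). These groups overlapped, and a 1.5-fold difference lies outside the interval in either direction.

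Of the LXR-controlled genes, Abca1, a cholesterol exporter, was low, at 1.76, 2.46 and 1.92 CPM in tatcre and 1.89, 2.15 and 2.51 CPM in mock libraries. Its interval is wide (log2 fold change -0.09, 95% interval -0.74 to 0.56, edgeR adjusted p = 0.843). A fall of the size of the median of the sterol synthesis genes (-0.63) lies inside that interval. The sign of the Abca1 fold change turned with total-count scaling or without mock 3. Abcg1, its partner in export, had 17.9, 18.3 and 19.6 CPM in tatcre and 21.5, 21.5 and 20 CPM in mock libraries, without overlap, and had no call (log2 fold change -0.17, 95% interval -0.39 to 0.05, edgeR adjusted p = 0.222). Mylip, a ubiquitin ligase that degrades lipoprotein receptors, fell 1.25-fold, to 23.9 ± 1.73 CPM in tatcre against 29.9 ± 0.714 CPM in mock cells (edgeR adjusted p = 0.0256). That call was lost in 6 of 12 other settings (edgeR adjusted p up to 0.0939), among them the replicate block (0.0617), upper-quartile scaling, and leaving out tatcre 2, mock 1 or mock 2.

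The sterol and fatty acid arms were set side by side as a description. The median log2 fold change was -0.63 over 18 sterol genes and -0.40 over 9 fatty acid genes. Within each library the median log2 distance from the mean of the mock libraries was -0.62, -0.60 and -0.59 in tatcre 1, 2 and 3 for sterol genes and -0.42, -0.46 and -0.32 for fatty acid genes. In the mock libraries, which set the zero, both medians lay between -0.03 and 0.02. The sterol median was thus the lower in each tatcre library, by 0.14 to 0.28, while the single largest fall, that of Fads2, was in the fatty acid arm. The fatty acid values rest on more counts per gene, with a median of the mean log2 CPM of 7.22, against 5.92 for sterol genes. Fold changes ran from -1.02 to -0.13 on the log2 scale in the sterol arm and from -1.55 to -0.23 in the fatty acid arm, so the arms overlap widely, and no test of the difference was made.

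Synthesis was set beside the LXR-controlled genes in the same way. Of 27 synthesis genes 22 fell (81.5%), with a median log2 fold change of -0.53, and of 3 LXR-controlled genes 1 fell, with a median of -0.17. Over all tested genes 16.3% were lower. Library medians were -0.50, -0.56 and -0.47 for synthesis in tatcre 1, 2 and 3, and -0.26, -0.19 and -0.17 for the LXR-controlled genes. The direction was thus below the mock mean in both, by less in the LXR-controlled genes. With 3 such genes, 1 of them near 2 CPM, the comparison describes these genes alone.

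**Figure D4:**
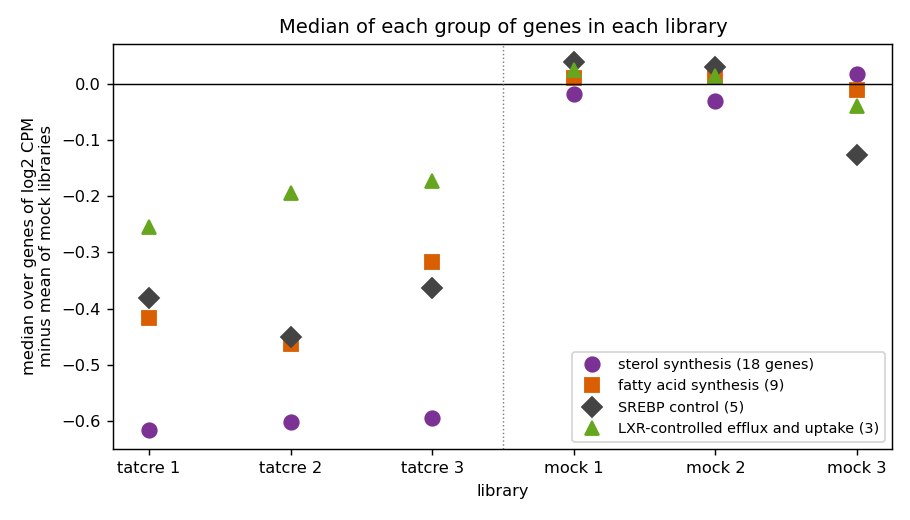
Median over the genes of each group of log2 CPM minus the mean of the mock libraries, for each library, tatcre left and mock right. Sterol synthesis is lowest in all 3 tatcre libraries (-0.62 to -0.59), and of the 4 groups shown LXR-controlled genes lie nearest to 0 there (-0.26 to -0.17).

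**Figure D5:**
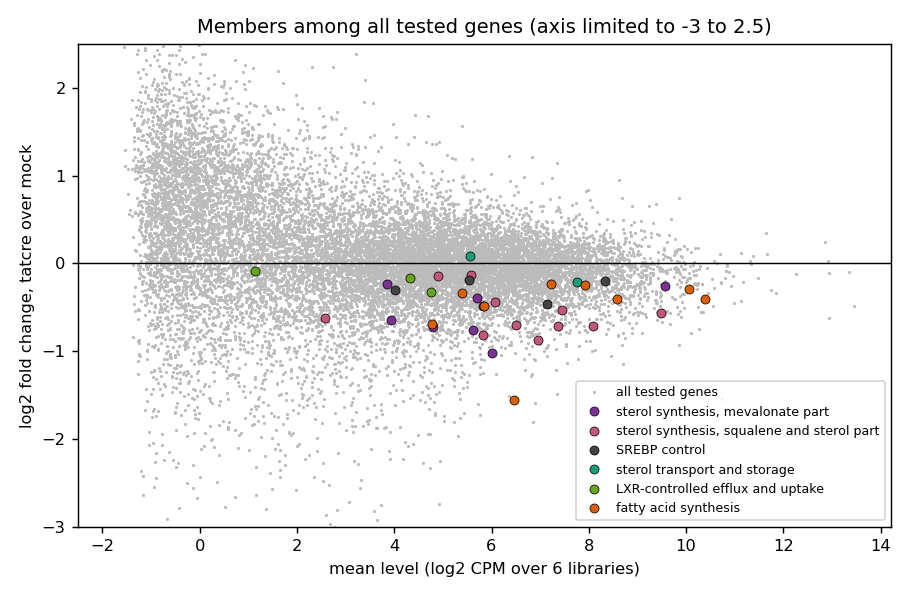
Log2 fold change, tatcre over mock, against mean level (log2 CPM) for all tested genes in grey and the 37 genes in colour; 83 tested genes lie outside the range shown. The coloured points lie below 0, apart from Soat1.

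Other genes of these pathways, 61 in all and none of them among the 37, were examined as lists. Of 54 tested, 19 fell and 2 rose (35.2% lower, against 16.3% of all tested genes), with a median log2 fold change of -0.17. In SREBP processing and sterol sensing 5 of 10 fell. They included the ubiquitin ligase genes Rnf145 (65.2 ± 3.46 CPM in tatcre, 94.4 ± 5.94 CPM in mock cells) and Rnf139 (48 ± 3.2 CPM in tatcre, 70.4 ± 4.76 CPM in mock cells). Pgrmc1, a heme-binding membrane protein gene, fell 1.42-fold. The 1 rise was that of Mbtps1, the protease that makes the initial cut of SREBP, with 91.3, 80.8 and 95.5 CPM in tatcre and 75.4, 77.5 and 70.4 CPM in mock libraries (edgeR adjusted p = 0.048). That call was lost in 7 of 12 other settings (edgeR adjusted p up to 0.17), among them the replicate block and leaving out tatcre 1, tatcre 3 or any mock library. Mbtps1 was named after its value was seen.

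In the branches that use farnesyl diphosphate for purposes other than sterol, 3 of 13 genes fell (23.1%) and 1 rose. These counts are near the shares over all tested genes, 16.3% lower and 10.8% higher. Fnta and Fntb, the subunits of protein farnesyltransferase, fell 1.73- and 1.52-fold, with Fnta at 35.4 ± 3.04 CPM in tatcre and 61.4 ± 3.77 CPM in mock cells. Dhdds, a dolichol synthesis gene named after its value was seen, fell 1.4-fold. Ggps1, which makes geranylgeranyl diphosphate, rose 1.34-fold, with 52.5, 53.9 and 51.6 CPM in tatcre and 39.3, 40 and 38.3 CPM in mock libraries (log2 fold change 0.42, SE 0.08, edgeR adjusted p = 0.00252). Its tatcre libraries all lay above its mock libraries. Fdps and Ggps1, which act in sequence, thus had calls in opposite directions.

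Among 17 tested genes of other fatty acid and lipid synthesis 8 fell and none rose. Lpcat3, which puts polyunsaturated chains into phospholipid, fell 1.77-fold, with 53.6, 47.6 and 51.8 CPM in tatcre and 94, 91.7 and 84.8 CPM in mock libraries (edgeR adjusted p = 6.28e-05). Slc25a1, the carrier that brings citrate out of mitochondria, fell 1.69-fold and Acss2, a cytosolic acetyl-CoA synthetase, 1.7-fold. Of 14 tested genes of LXR, sterol transport and oxysterols 3 fell (21.4%), near the share of 16.3% over all tested genes. Vldlr, a lipoprotein receptor gene of low level, had 1.11, 1.59 and 0.842 CPM in tatcre and 6.05, 3.93 and 6.13 CPM in mock libraries, a 4.54-fold fall (edgeR adjusted p = 0.000399). Scarb1, a lipoprotein receptor that takes up sterol esters, fell 1.57-fold, to 36.9 ± 2.86 CPM in tatcre against 57.9 ± 4 CPM in mock cells. Npc1, the lysosomal sterol exporter, fell 1.22-fold (edgeR adjusted p = 0.045), a call lost in 10 of 12 other settings, among them leaving out any library (edgeR adjusted p up to 0.178).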

How the data were processed

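The authors' deposited RNA files hold raw counts per Ensembl gene ID, 1 file per library. The tools named in the submitters' processing notes are HTSeq, SAMtools, TopHat2 and Trimmomatic, with build mm10; their versions, the annotation, strand setting and handling of multiply mapped reads were not given, so reads of overlapping or near-identical genes may be counted with a neighbour. The 3 deposited YY1 peak lists were not used: peaks lie past the last RefSeq gene of GRCm38 on 7 chromosomes, so their build is not settled.

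Titles set the groups; the sample text names TAT-CRE throughout, so titles and series text were followed. Of 48795 IDs 48349 matched a symbol. Genes were kept with filterByExpr (minimum count 10, minimum total 15), scaled by TMM and compared by the quasi-likelihood test of edgeR 4.0.16 under R 4.3.3, which was tested on simulated data. Intervals are 95%. No replicates agreed within sampling noise (chi-square per degree of freedom at least 8.1). Alternatives were RLE, upper-quartile and total-count scaling, DESeq2 1.42.0, no low-count filter, a replicate block and leaving out each library. Named were all 37 genes, the 3 called genes of smallest adjusted p in each other list, Yy1, and others where stated. The members and lists were chosen with earlier results of these data known. Some genes of the lists are not reported here.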

Additional observations from a re-analysis of the deposited data

How the results depend on the processing

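Of the 25 falls among the 37 genes, 22 kept their call and direction under all 12 alternatives; the exceptions, Tm7sf2, Mylip and Elovl5, are given above. The count of sterol genes that fell was 14 with RLE, upper-quartile and total-count scaling, with DESeq2 and with the replicate block, and 15 without the low-count filter; leaving out 1 library gave 13 to 15. For fatty acid genes it was 8 with RLE factors and DESeq2, 7 with upper-quartile factors, total counts or the replicate block, 9 without the low-count filter, and 7 to 8 with 1 library left out. Abca1, which was not called, turned to a log2 fold change of 0.019 with total counts alone, and ran from -0.24 (without tatcre 2) to 0.0077 (without mock 3) with 1 library left out. Over all tested genes, falls made up 60.2% of calls with TMM, 48.5% with upper-quartile factors and 42% with total counts, which moves the median over all tested genes to 0.13, and that of sterol genes to -0.53, on the log2 scale. The count of genes called higher was 2614 with total counts alone, and 998 (without mock 2) to 1681 with 1 library left out, among them 1002 without tatcre 1; the cause was not tested. Deviations from the group means correlated at 0.06, -0.03 and 0.23 between libraries numbered 1, 2 and 3, and tatcre 2 went best with mock 1 (0.25), so no pairing was assumed. With the replicate block, 23 of the 37 genes fell, without Mylip and Elovl5. The alternatives for genes outside the 37 were added after seeing the data. At this depth the interval of Abca1 is wide (-0.74 to 0.56), while that of Abcg1 (-0.39 to 0.05) leaves out a fall of the size of the sterol median (-0.63).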
